A study of Mus musculus with 18 samples.

Results

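The 10 genes described here encode tau and other proteins that bind the microtubule lattice or its growing end: Mapt, Map2, Map4, Map1a, Map1b, Map6, Dcx, Dclk1, Mapre2 and Mapre3. They were taken by symbol and Ensembl identifier, and all 10 were found among the 39017 identifiers of the gene count tables. Their exons were divided into 264 of the 355320 exon bins of the exon files, where a bin is a stretch of exon shared by the same set of transcripts. The messages were measured by TRAP (translating ribosome affinity purification), which sequences mRNA pulled down with tagged ribosomes, in layer II neurons of mouse entorhinal cortex. In the silencing experiment 4 mice had received a vector labelled Ptbp1_shRNA and 5 a vector labelled Scrambled_shRNA. For overexpression, 5 mice were given a vector labelled PTBP1_OE and 4 mice a vector labelled control_OE. All vectors also carry mCherry, each library is 1 mouse with both of its entorhinal cortices pooled, and 1 mouse each of the Ptbp1 shRNA and control OE groups had been left out by the authors for lack of mCherry reads. The sources used here do not give the strain, age, sex or the line that drives the tagged ribosome. The tissue field of the labels reads hippocampus, whereas title and design name the entorhinal cortex.

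Microtubules are polymers of tubulin that carry transport along axons and dendrites. Tau (Mapt, mainly axonal), MAP2 (Map2, mainly dendritic) and MAP4 (Map4, found in most tissues) share a related microtubule-binding region and stabilise the polymer. MAP1A and MAP1B are large scaffold proteins, MAP1B being known from growing axons and MAP1A from mature neurons. MAP6 protects microtubules from cold, doublecortin (Dcx) and the kinase DCLK1 bind the lattice in migrating and maturing neurons, and the end-binding proteins encoded by Mapre2 and Mapre3 sit on growing tips. PTBP1 is an RNA-binding protein that prefers pyrimidine-rich RNA and is best known for keeping neuronal exons out of mRNA in non-neuronal cells. In people, the choice of tau exon 10 decides whether tau carries an additional microtubule-binding repeat, and shifts in that choice are linked to tau disease.

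The gene tables held 34339355 to 46544178 counts per library in the silencing experiment and 18288627 to 39056655 in the overexpression experiment. The silencing libraries were covered less evenly: between 1.24% and 8.30% of the exon bins that averaged at least 50 counts were at 0 in a given silencing library, against 0.0213% to 0.0551% in the overexpression libraries. The common biological coefficient of variation was 90.1% in the silencing experiment and 22.3% in the overexpression experiment. Ptbp1 had 6.57, 0.101, 0.588 and 13.1 CPM, a unit in which counts are scaled to the same library total, in the 4 libraries labelled Ptbp1 shRNA, against 3.38, 0.930, 6.72, 0.349 and 9.11 CPM in the scrambled ones, so the groups overlapped and the knockdown was not visible in these counts. In the PTBP1 OE libraries Ptbp1 had 136, 143, 158, 129 and 118 CPM, against 17.2, 13.5, 9.96 and 12.3 CPM in control OE, with no overlap. All 10 excitatory neuron markers checked were detected in every library of each group. Their summed level was 1797 to 2844 CPM in Ptbp1 shRNA, 2822 to 4808 CPM in scrambled shRNA, 2355 to 3254 CPM in PTBP1 OE and 2879 to 3378 CPM in control OE. The 5 markers of hippocampal granule and pyramidal cells summed to 152 to 261 CPM in Ptbp1 shRNA and 216 to 395 CPM in scrambled shRNA. They summed to 278 to 331 CPM in PTBP1 OE and 297 to 338 CPM in control OE. Zbtb20 and Mpped1 carried most of these sums. In the same order of groups Zbtb20 averaged 102, 135, 31.7 and 27.2 CPM, and Mpped1 80.3, 133, 256 and 273 CPM. Group means were 3.62 to 7.76 CPM for Prox1, 0.197 to 0.680 CPM for Dsp and 0.141 to 11.7 CPM for Fibcd1.

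Set per kilobase of annotated exon, the ribosome-bound messages of the 10 genes spanned a wide range and kept a similar order in both overexpression groups. Map1b led with 176 ± 22.6 CPM per kb in PTBP1 OE and 175 ± 33.1 in control OE (SD, n = 5 and 4). Dclk1 followed with 128 ± 12.9 in PTBP1 OE and 137 ± 10.7 in control OE. Map1a, Mapre3 and Mapre2 formed a middle group whose neighbours overlapped, with Map1a at 70.9 ± 12.8 CPM per kb in PTBP1 OE and 71.4 ± 10.8 in control OE and Mapre2 at 65.5 ± 4.07 and 65.4 ± 7.16 in the same groups. Mapt stood below Mapre2 without overlap, at 43.6 ± 3.02 CPM per kb in PTBP1 OE and 41.5 ± 3.41 in control OE, and overlapped with its next neighbour, Map2 at 36.4 ± 2.96 in PTBP1 OE or Map4 at 36.9 ± 1.36 in control OE. Map6 and Dcx were lowest, Dcx with 4.20 ± 0.525 CPM per kb in PTBP1 OE and 4.18 ± 0.604 in control OE. In the silencing libraries Map1b and Dclk1 also led, but Map4 ranked 3, at 105 ± 51.2 CPM per kb in Ptbp1 shRNA and 93.2 ± 39.2 in scrambled shRNA (n = 4 and 5), and Mapt ranked 8, at 18.8 ± 8.67 and 25.4 ± 6.16 in the same groups. Levels were not tested across the experiments.

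**Figure D1:**
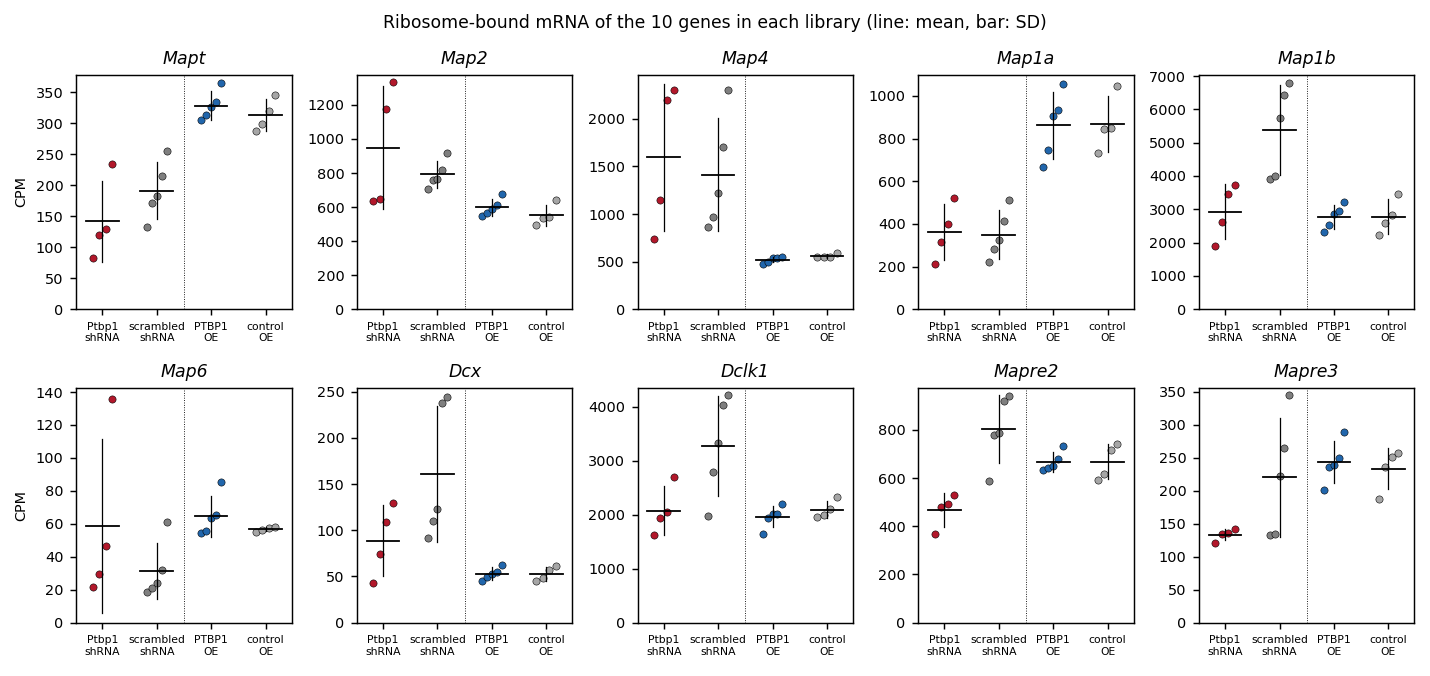
CPM of each of the 10 genes (vertical axis, linear, starting at 0) in every library of the 4 groups (points), with the mean as a line and the SD as a bar. The PTBP1 OE and control OE points overlap in all 10 panels, and the Ptbp1 shRNA points of Map1b and Mapre2 all lie below the scrambled ones.

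In the exon files Map4 is counted under an identifier that joins it with a second gene, ENSMUSG00000047011, and this joined identifier has 50 bins. With PTBP1 overexpression a run of 5 neighbouring bins, 008 to 012, rose to a combined 21.6% ± 2.92 of the identifier's bin counts, against 3.42% ± 0.554 in control OE (SD, n = 5 and 4), a ratio of 6.31. The bin just before them, 007, fell to 40.3% ± 3.32 in PTBP1 OE, against 62.0% ± 1.21 in control OE. These 6 bins were the ones called among the members' 175 tested bins by edgeR's diffSpliceDGE at an adjusted p under 0.05, beside 0.034% of all 117580 tested bins called in that comparison, so that 6 of its 40 calls lay in this identifier.

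Bin 011, the strongest of the run, held 9.87%, 11.5%, 10.8%, 9.43% and 7.91% of the counts in the 5 PTBP1 OE libraries, against 1.77%, 2.002%, 1.24% and 1.69% in the 4 control OE libraries. Every PTBP1 OE library stood far above every control library. Its usage relative to the other bins had a natural-log change of 1.78 (edgeR adjusted p = 6.97e-40). All edgeR changes of bin usage are given as natural logs, while changes of genes are log2. Bin 008 held 2.87%, 2.65%, 3.24%, 2.49% and 2.30% in PTBP1 OE, against 0.381%, 0.405%, 0.378% and 0.290% in control OE. It had the largest natural-log change, 2.01 (edgeR adjusted p = 2.15e-33). Bin 009 averaged 3.32% ± 0.456 in PTBP1 OE and 0.476% ± 0.0434 in control OE (natural-log change 1.94, edgeR adjusted p = 3.02e-34). The same separation held for bin 010, with 3.73% ± 0.750 in PTBP1 OE and 0.595% ± 0.141 in control OE (1.83, edgeR adjusted p = 1.32e-33). Bin 012 averaged 1.89% ± 0.173 in PTBP1 OE and 0.312% ± 0.0659 in control OE (1.78, edgeR adjusted p = 8.39e-23). These 5 bins passed under all 11 other settings tried. Their p-values pool the bins of the identifier, which come from the same mice, so they do not measure the spread between mice alone.

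Bin 007 held 40.3%, 36.3%, 38.2%, 41.9% and 44.9% of the counts in the PTBP1 OE libraries, against 60.2%, 62.1%, 62.6% and 62.9% in control OE. It holds more counts than any other bin of the identifier, and its groups did not overlap. Its relative usage had a natural-log change of -0.43 (edgeR adjusted p = 0.0356). This call was lost in 8 of 11 other settings, with adjusted p between 7.87e-30 and 0.267. Scaled in the same way to CPM over all bins of the library, bin 007 had 193 ± 14.3 in PTBP1 OE and 277 ± 7.47 in control OE, and bins 008 to 012 together had 104 ± 19.0 and 15.3 ± 2.60 in the same groups. Bins 007 to 012 summed had 296 ± 21.9 in PTBP1 OE and 293 ± 7.93 in control OE, so the loss in the one and the gain in the others were of like size. Summed markers of glia, beside this result, had overlapping ranges. The 6 astrocyte markers summed to 283 to 643 CPM in PTBP1 OE and 444 to 682 CPM in control OE, and the 9 oligodendrocyte markers to 91.5 to 124 CPM and 81.8 to 100.9 CPM. The 6 microglia markers summed to 6.60 to 10.8 CPM in PTBP1 OE and 5.34 to 7.84 CPM in control OE, but 2 of them, both low, did not overlap. P2ry12 had 0.751 to 1.998 CPM in PTBP1 OE and 0.169 to 0.612 CPM in control OE, and Cx3cr1 had 0.244 to 0.584 and 0.0424 to 0.238 CPM in the same groups. The part of glia in the result was not tested. The remaining 44 bins had 182 ± 12.6 CPM in PTBP1 OE and 155 ± 3.73 in control OE.

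**Figure D2:**
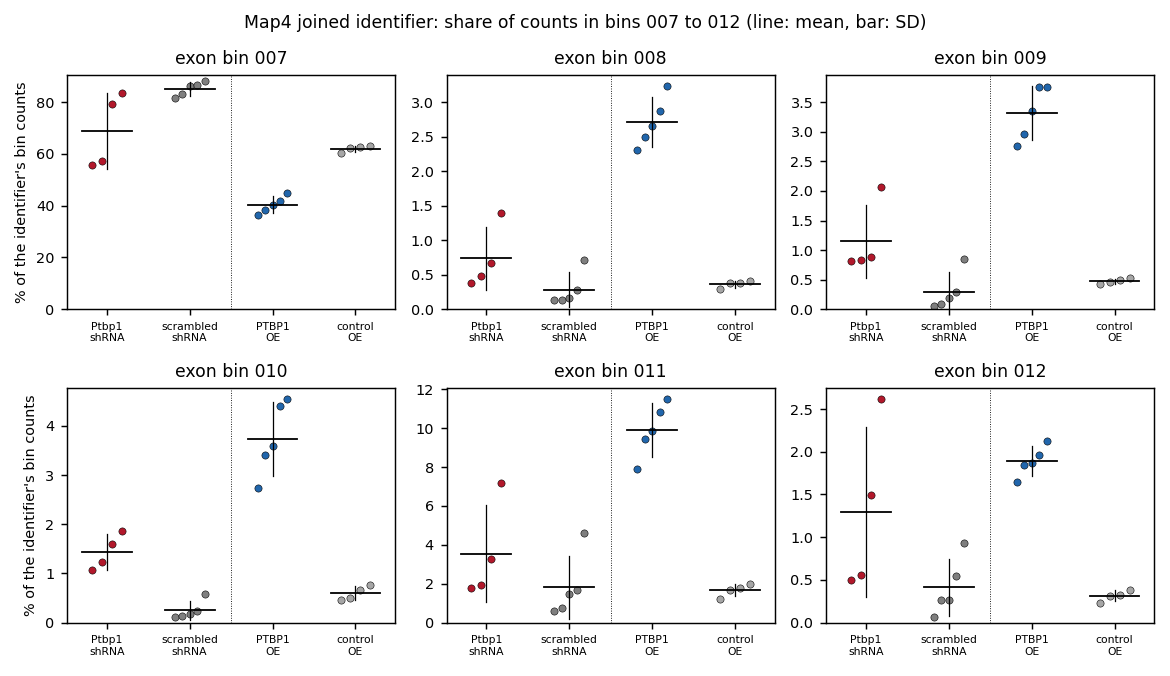
Share of the Map4 joined identifier's bin counts (percent, linear, starting at 0) in bins 007 to 012, with 1 point per library, the mean as a line and the SD as a bar. In bins 008 to 012 all 5 PTBP1 OE libraries lie above all 4 control OE libraries, and in bin 007 all lie below them.

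Further along the identifier the shifts were smaller. Of its 27 tested bins, 18 had an unadjusted p under 0.05 with higher relative usage and 2 with lower, beside 1.38% of all tested bins with such a p. Outside the 6 called bins, bin 049 came closest to a call, with 8.33% ± 0.425 in PTBP1 OE and 5.58% ± 1.24 in control OE (natural-log change 0.40, edgeR adjusted p = 0.351). Bin 030 was the other bin with lower usage, at 5.41% ± 0.650 in PTBP1 OE and 7.71% ± 0.760 in control OE (adjusted p = 1.00). As 1 test per gene, with Simes' method over the bins, the Map4 identifier had an adjusted p of 1.64e-39 in edgeR, and no other member passed.

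In the silencing experiment the same bins were measured on uneven coverage. Bins 008 to 012 together held 12.6%, 7.49%, 4.77% and 7.78% of the identifier's counts in the libraries labelled Ptbp1 shRNA, against 1.03%, 2.90%, 3.03%, 1.35% and 7.03% in the scrambled ones. Scrambled replicate 5, one of the 2 least evenly covered silencing libraries, overlapped with the Ptbp1 shRNA group, and the other 4 scrambled libraries lay below it. Of the 20 bins of the identifier tested here, 6 had an unadjusted p under 0.05, all with higher relative usage in Ptbp1 shRNA. Bin 007 held 55.5%, 83.5%, 79.1% and 57.1% of the counts in Ptbp1 shRNA, against 82.9%, 88.0%, 86.0%, 81.4% and 86.6% in scrambled shRNA, and the groups overlapped through Ptbp1 shRNA replicate 2. Bin 010 averaged 1.43% ± 0.360 in Ptbp1 shRNA and 0.248% ± 0.195 in scrambled shRNA, with groups that did not overlap (natural-log change 1.48, unadjusted p = 0.00752, edgeR adjusted p = 1.00). Bin 049 also separated the groups, at 4.24% ± 1.43 in Ptbp1 shRNA and 1.38% ± 0.682 in scrambled shRNA (adjusted p = 1.00), as did bin 050, with 0.201% ± 0.0810 and 0.0298% ± 0.0228 in the same groups (adjusted p = 1.00). Bins 032 and 012 completed the 5 with the smallest p; bin 032 averaged 0.870% ± 0.981 in Ptbp1 shRNA and 0.0614% ± 0.0625 in scrambled shRNA. Among the members 0 of 156 tested bins were called with edgeR, 7 had an unadjusted p under 0.05 and 0 were called by limma's diffSplice. Of all 83164 tested bins edgeR called 0.0012% and diffSplice 0.00361%, and 1.98% had such an unadjusted p. Whether the Map4 bins responded differently in both experiments was not tested.

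**Figure D3:**
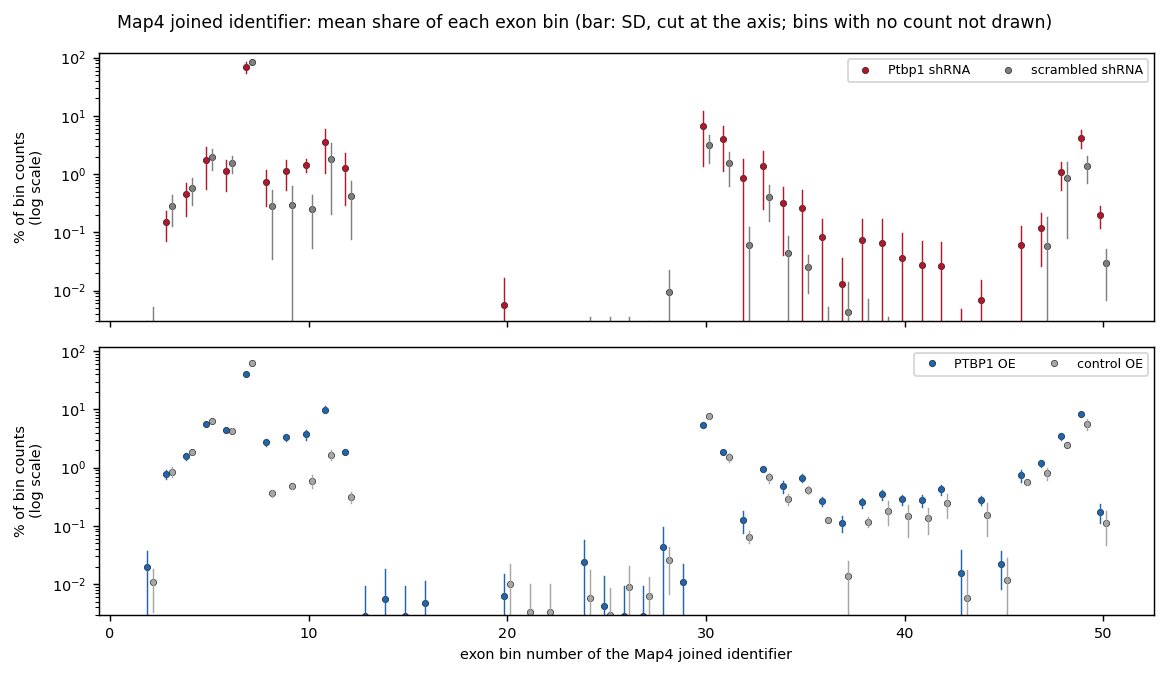
Mean share of the bins of the Map4 joined identifier (log axis) by bin number, Ptbp1 shRNA and scrambled shRNA above, PTBP1 OE and control OE below, with the SD as a bar and bins without a count not drawn. The PTBP1 OE and control OE points lie apart at bins 007 to 012 and close together at bins 003 to 006.

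The bins of this identifier could not be placed on the genome, because rebuilding them from the annotation gave 30 bins and not 50; Map4 itself lies at mm10 chr9:109931460-110083955 on the plus strand. In the gene tables ENSMUSG00000047011 alone had 2 to 53 counts per library, against 9862 to 91605 for Map4. The sources used here do not say how reads lying on both genes were counted, or whether strand was used.

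At the level of whole genes PTBP1 overexpression left the ribosome-bound amounts of these messages within narrow bounds. With edgeR's quasi-likelihood test 0 of 10 members were called at an adjusted p under 0.05, beside 0.0425% of 16480 tested genes, and DESeq2 and limma voom called 0 members as well, beside 0.204% and 0.0485% of all genes they tested. An unadjusted p under 0.05 was found for 0 members, beside 4.78% of all genes (1.99% lower and 2.79% higher). Groups that did not overlap were found for 0 members, beside 1.81% of all genes (0.686% lower and 1.13% higher). Their log2 fold changes ran between -0.10 and 0.19, with 95% intervals inside -0.29 to 0.45, and larger changes lay outside every interval. In bulk samples like these, fewer cells and less message per cell cannot be told apart.

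Mapt (ENSMUSG00000018411, mm10 chr11:104231390-104332090, plus strand) had 305, 313, 364, 326 and 333 CPM in PTBP1 OE, against 320, 345, 299 and 287 CPM in control OE (log2 fold change 0.07, 95% interval -0.10 to 0.24, edgeR adjusted p = 0.974). The groups overlapped, with the highest library in PTBP1 OE and the lowest in control OE. Map2 averaged 599 ± 48.6 CPM in PTBP1 OE and 553 ± 61.3 CPM in control OE (0.11, interval -0.08 to 0.30). Map4 had 533, 500, 554, 538 and 480 CPM in PTBP1 OE, against 548, 590, 549 and 549 CPM in control OE, with the lowest log2 fold change of the 10, -0.10 (interval -0.25 to 0.05, edgeR adjusted p = 0.974), although its bins shifted. Map1a averaged 863 ± 156 CPM in PTBP1 OE and 869 ± 131 CPM in control OE, and Map1b 2782 ± 359 and 2772 ± 524 CPM in the same groups. Map6, which had the highest log2 fold change, 0.19 (interval -0.07 to 0.45), averaged 64.6 ± 12.4 CPM in PTBP1 OE and 56.7 ± 1.18 CPM in control OE. Dcx, Dclk1, Mapre2 and Mapre3 lay between -0.10 and 0.06 on the log2 scale.

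**Figure D4:**
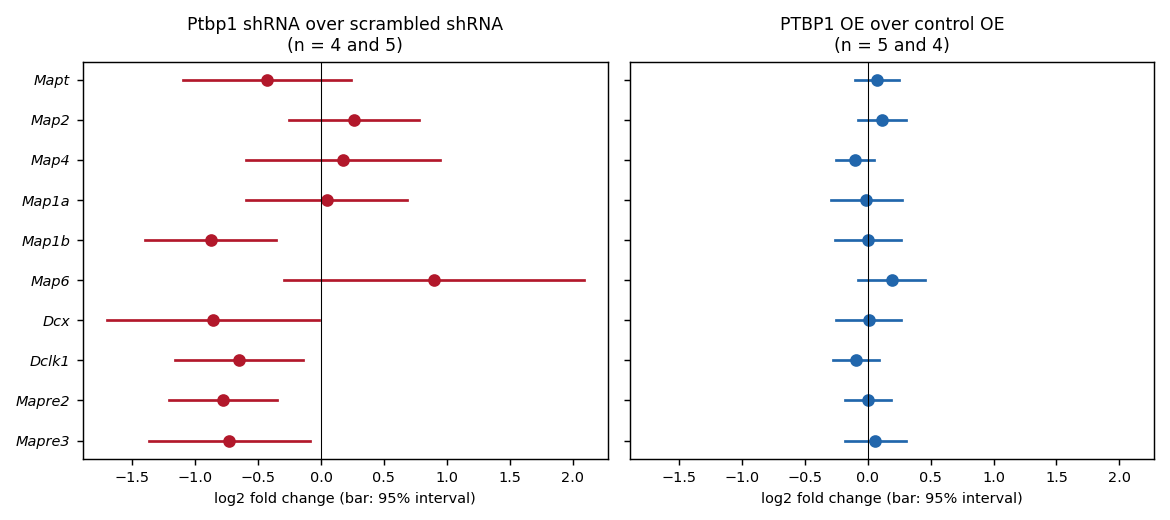
Log2 fold change (points) and 95% interval (bars) of each gene, with Ptbp1 shRNA over scrambled shRNA on the left and PTBP1 OE over control OE on the right, on 1 common axis. Each interval on the left is wider than its counterpart on the right, and 5 of those on the left lie below 0.

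In the silencing experiment 5 of the 10 genes had lower values in the libraries labelled Ptbp1 shRNA at an unadjusted p under 0.05, and none passed after adjustment. Such a p was found for 11.2% of the 14656 genes tested (5.42% lower and 5.76% higher), and edgeR's quasi-likelihood test called 0% of them. Of the 10 members edgeR called 0. DESeq2 called 1, beside 4.51% of all genes it tested, and limma voom called 0, beside 0.471%. The median log2 fold change of the members was -0.54, beside 0.03 over all genes, with 4 members higher and 6 lower. Map1b and Mapre2 were the members whose groups did not overlap, both lower, beside 4.84% of tested genes (2.45% lower and 2.39% higher).

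Map1b (ENSMUSG00000052727, chr13:99421446-99516540, minus strand), the large scaffold of growing axons, had 1906, 3718, 2604 and 3463 CPM in Ptbp1 shRNA, against 6423, 4004, 3910, 5741 and 6801 CPM in scrambled shRNA. All 4 libraries of the first group lay below all 5 of the second. The log2 fold change was -0.88 (SE 0.24, 95% interval -1.40 to -0.36, unadjusted p = 0.00291, edgeR adjusted p = 0.198). The sister gene Map1a averaged 361 ± 131 CPM in Ptbp1 shRNA and 350 ± 114 CPM in scrambled shRNA (0.04, edgeR adjusted p = 0.977).

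Both genes of the growing tip were lower on average without passing. Mapre2 had 529, 479, 492 and 366 CPM in Ptbp1 shRNA, against 921, 780, 943, 787 and 586 CPM in scrambled shRNA. Its groups did not overlap (log2 fold change -0.78, SE 0.20, interval -1.21 to -0.35, unadjusted p = 0.00168, edgeR adjusted p = 0.165). DESeq2 gave it an adjusted p of 0.0120. Mapre3 had 134, 141, 135 and 121 CPM in Ptbp1 shRNA, a tight group, against 223, 133, 134, 265 and 345 CPM in scrambled shRNA, 2 of which lay inside the range of the Ptbp1 shRNA group. Its log2 fold change was -0.73 (interval -1.37 to -0.09, unadjusted p = 0.0283, edgeR adjusted p = 0.381).

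The doublecortin pair was lower on average, with overlapping groups. Dclk1 had 2044, 2704, 1927 and 1624 CPM in Ptbp1 shRNA, against 4027, 1964, 3326, 2782 and 4217 CPM in scrambled shRNA, overlapping through scrambled replicate 2 (log2 fold change -0.65, interval -1.16 to -0.14, unadjusted p = 0.0159, edgeR adjusted p = 0.311). Dcx had 129, 43.1, 109 and 73.8 CPM in Ptbp1 shRNA, against 123, 110, 238, 91.4 and 244 CPM in scrambled shRNA. The ranges overlapped, and 2 scrambled libraries stood high (-0.86, interval -1.70 to -0.02, unadjusted p = 0.0457, edgeR adjusted p = 0.439). The 6 markers of immature neurons, among which 4 were detected in every silencing library, summed to 88.3 to 210.5 CPM in Ptbp1 shRNA and 79.5 to 117 CPM in scrambled shRNA.

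Mapt had 82.4, 235, 130 and 120 CPM in Ptbp1 shRNA, against 215, 183, 171, 132 and 255 CPM in scrambled shRNA. Of the 4 Ptbp1 shRNA libraries 3 lay below every scrambled one and replicate 2 lay near the top (log2 fold change -0.43, interval -1.10 to 0.24, edgeR adjusted p = 0.664). Map2 averaged 949 ± 361 CPM in Ptbp1 shRNA and 793 ± 80.3 CPM in scrambled shRNA (0.26, adjusted p = 0.759 in edgeR). Map4 averaged 1595 ± 775 and 1412 ± 594 CPM in the same groups (0.18, edgeR adjusted p = 0.909). Map6 had the highest log2 fold change, 0.90 (interval -0.29 to 2.09, edgeR adjusted p = 0.597), with 46.6, 21.7, 29.2 and 136 CPM in Ptbp1 shRNA and 21.2, 24.04, 18.7, 31.9 and 60.8 CPM in scrambled shRNA, so that Ptbp1 shRNA replicate 4 alone lay above all scrambled libraries. Without that library the log2 fold change was 0.05, and without the 2 least evenly covered libraries it was 1.56.

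Beside these lower values stood a lower range of the summed excitatory neuron markers in Ptbp1 shRNA, given above. Markers of other cell types were set beside them. The 6 astrocyte markers summed to 318 to 788 CPM in Ptbp1 shRNA and 623 to 1031 CPM in scrambled shRNA, with 4 of 6 detected in every library of either group. Slc1a2 carried most of this sum, with 554 ± 211 CPM in Ptbp1 shRNA and 850 ± 156 CPM in scrambled shRNA. Gfap, at 6.20 ± 1.89 and 4.59 ± 3.93 CPM, Aqp4, at 8.10 ± 9.21 and 7.01 ± 5.46 CPM, and Aldh1l1, at 0.611 ± 1.15 and 0.00520 ± 0.0116 CPM, had higher means in Ptbp1 shRNA than in scrambled shRNA, with overlapping ranges. The 7 interneuron markers summed to 184 to 365 CPM in Ptbp1 shRNA and 292 to 368 CPM in scrambled shRNA. The 6 microglia markers summed to 0.0560 to 3.09 CPM in Ptbp1 shRNA, with C1qa and C1qb at 0, and 2.21 to 19.3 CPM in scrambled shRNA, with C1qa at 0. The 9 oligodendrocyte markers summed to 29.6 to 73.1 and 22.5 to 50.5 CPM in the same groups, with Mag at 0 in both, and the 4 vessel markers to 0.191 to 6.72 and 0.0954 to 0.589 CPM, with Cldn5 and Vtn at 0 in both. The part of these cells in the result was not tested. When all 18 libraries shared 1 spread, 4 of the 5 genes passed in edgeR, with adjusted p = 0.0133 for Map1b, 0.0312 for Dclk1, 0.00390 for Mapre2 and 0.0481 for Mapre3. In that fit 9.98% of all 17779 genes passed, and it lends the silencing libraries the smaller spread of the overexpression libraries.

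Set against each other in 1 model of the 18 libraries, the silencing response minus the overexpression response was called for 0 of the 10 members by edgeR, beside 0.225% of 17779 genes, and for 0 by limma voom, beside 0.169%. An unadjusted p under 0.05, which 14.6% of genes had, was found for 4 members, all with a lower response to silencing. They were Mapre2 (-0.79 on the log2 scale, edgeR adjusted p = 0.0949), Map1b (-0.89, adjusted p = 0.151), Mapre3 (-0.80, adjusted p = 0.245) and Dclk1 (-0.56, adjusted p = 0.316). Without scrambled replicate 5 the difference passed for Mapre2 (-0.89, edgeR adjusted p = 0.0373), beside 0.649% of 17715 genes. Mapre2 passed in this 1 of 21 other settings, run with edgeR or limma voom, and its adjusted p reached 0.212 among them. These edgeR fits also share 1 spread, which lends the silencing libraries the smaller spread of the overexpression libraries.

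Exons 2, 3 and 10 of tau were measured one by one. Exons 2 and 3 encode short inserts near the amino end, and exon 10 encodes a microtubule-binding repeat. In the GENCODE M21 annotation 5 coding transcripts of Mapt hold exon 10 and 0 that span it skip it, so that exon 10 counts as constitutive there. The sequences of exons 2 and 3, which lie side by side in the message, are shown because the motif search bears on them. They are from GENCODE M21 transcripts on mm10, plus strand, 5′ to 3′, in lower case, with the pyrimidine tetramer TCTT in capitals where present.
Mapt exon 2, chr11:104287123-104287209: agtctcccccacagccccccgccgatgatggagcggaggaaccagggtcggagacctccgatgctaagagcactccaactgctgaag
Mapt exon 3, chr11:104289908-104289994: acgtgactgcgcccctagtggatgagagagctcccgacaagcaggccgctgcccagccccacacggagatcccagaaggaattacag
Neither exon holds TCTT, and exon 2 holds 1 AAGA, which is TCTT on the other strand. Among 7903 internal coding exons of 87 to 93 bases TCTT occurs in 31.1% and AAGA in 53.1%, and introns were not searched.

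With PTBP1 overexpression the coverage of tau exon 10 did not differ from control beyond the spread of the libraries. It rested on 82 to 158 counts per library in PTBP1 OE and 58 to 114 in control OE. Its coverage per base was 35.7%, 25.7%, 47.6%, 35.3% and 30.1% of that of the other constitutive coding bins in the PTBP1 OE libraries, against 34.8%, 35.6%, 37.5% and 30.4% in control OE. The control values lie inside the range of the PTBP1 OE values. The mean log2 ratio differed by -0.02 (SE 0.16, two-sided exact permutation test p = 0.937; the smallest p the design allows is 0.00794). Against its neighbours, exons 9 and 11, a comparison chosen after seeing the data, the difference was -0.00 (SE 0.05, exact permutation p = 0.976). These percentages are not inclusion levels, since the 66-base bin 013 reached 260% ± 29.1 in PTBP1 OE and 261% ± 5.10 in control OE by the same measure (natural-log change in relative usage 0.05, edgeR adjusted p = 1.00). In the silencing experiment bin 013, the one cassette bin of Mapt tested there, had a natural-log change in relative usage of -0.09 (edgeR adjusted p = 1.00).

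In the silencing libraries exon 10 rested on 71, 8, 6 and 178 counts in Ptbp1 shRNA and on 23, 40, 11, 36 and 0 counts in scrambled shRNA. Its relative coverage was 159%, 9.37%, 4.46% and 148% in Ptbp1 shRNA, against 26.3%, 35.2%, 47.4%, 107% and 0% in scrambled shRNA. The libraries of 1 group thus differed more than the groups did (log2 difference 1.08, SE 2.11, two-sided exact permutation p = 0.714). Without scrambled replicate 5 the difference was -0.54.

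Exon 2 had 28.2%, 21.2%, 26.2%, 34.1% and 78.1% relative coverage in PTBP1 OE, against 31.0%, 32.5%, 22.6% and 23.2% in control OE. PTBP1 OE replicate 5 stood alone above the rest, and the other 4 covered the control range. The relative usage had a natural-log change of 0.39 (unadjusted p = 0.0403, edgeR adjusted p = 1.00), and 0.02 without that library. Exon 3 was lower still, at 10.7% ± 4.54 in PTBP1 OE and 11.5% ± 4.05 in control OE (natural-log change in relative usage -0.11, edgeR adjusted p = 1.00). In the silencing experiment exon 2 had 0 to 7 counts in Ptbp1 shRNA and 0 to 90 in scrambled shRNA, and exon 3 had 0 to 3 and 0 to 6 in the same groups; neither passed the filter on low counts. The 5 other cassette bins of Mapt (015, 016, 018, 019 and 023) held at most 8 counts in any of the 18 libraries. In Map2, the 93-base exon at chr1:66431527-66431619, in the repeat region, had 0 to 2 counts in PTBP1 OE, 0 to 3 in control OE, 0 to 1 in Ptbp1 shRNA and 0 in every scrambled library, while the constitutive Map2 coding bins held 2647 to 13025 counts per library.

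**Figure D5:**
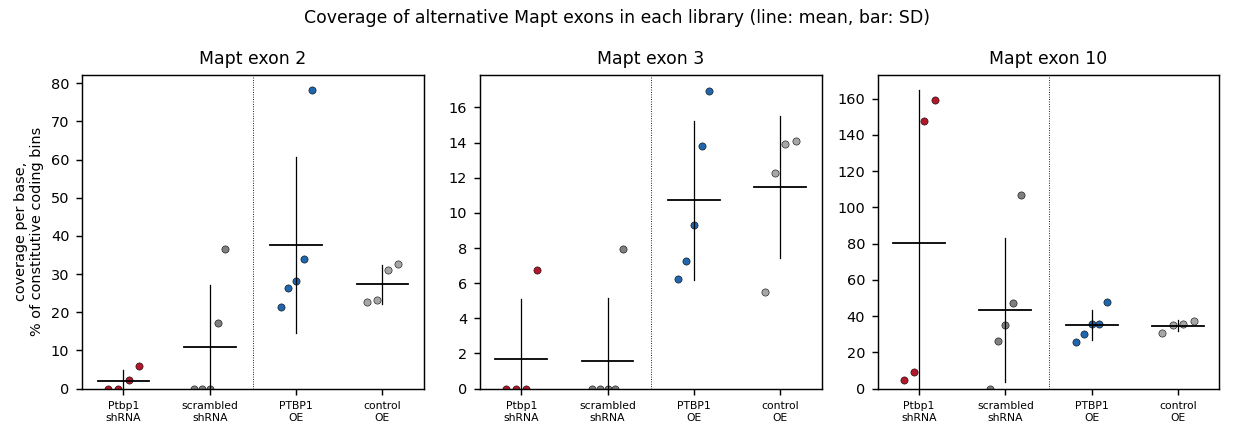
Coverage per base of Mapt exons 2, 3 and 10 as a percentage of the constitutive coding bins of Mapt (linear axis from 0) in every library, with the mean as a line and the SD as a bar. Exon 10 lies between 25.7% and 47.6% in all PTBP1 OE and control OE libraries, and spreads between 0% and 159% in the silencing libraries.

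No exon bin of the members other than Map4 was called in either experiment. A cassette bin is coding in at least 1 transcript used to rebuild the bins. At least 1 coding transcript of that set spans and skips it. The 7 members with placed bins have 34 cassette bins, of which 25 were tested in overexpression and 22 in silencing. In Map2, 15 of 17 cassette bins were tested in either experiment. Bin 040, at chr1:66412931-66413401, had 70.8% ± 8.27 of constitutive coverage per base in PTBP1 OE and 75.7% ± 6.11 in control OE (natural-log change in relative usage -0.01). Bin 041 had 29.5% ± 1.67 and 31.5% ± 1.53 in the same groups. One 3′ UTR bin of Map2, 065, had an unadjusted p of 0.00189, with 1.09% ± 0.181 of the gene's counts in PTBP1 OE and 1.62% ± 0.432 in control OE (edgeR adjusted p = 1.00). In Dclk1 all 4 cassette bins were tested. In overexpression the 325-base bin 006 had 14.7% ± 0.836 of constitutive coverage in PTBP1 OE and 15.02% ± 0.645 in control OE (natural-log change in relative usage -0.04). The constitutive reference of Dclk1 is a single bin, 007, of 95 bases. In Mapre3 1 bin, 015, had an unadjusted p of 0.0493 in the silencing experiment, with 5.95% ± 4.56 of the gene's counts in Ptbp1 shRNA and 2.40% ± 1.55 in scrambled shRNA (edgeR adjusted p = 1.00).

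The 3′ UTR bins of Mapt took 63.2% ± 17.2 of its bin counts in Ptbp1 shRNA, 72.5% ± 16.3 in scrambled shRNA, 42.9% ± 6.25 in PTBP1 OE and 47.3% ± 8.34 in control OE, so the mean share was larger in the silencing libraries, with overlapping ranges across the experiments. For Mapre2 the share was 49.6% ± 5.29 in Ptbp1 shRNA, 53.8% ± 3.75 in scrambled shRNA, 35.7% ± 1.13 in PTBP1 OE and 35.2% ± 1.73 in control OE. Within each experiment the compared groups overlapped for both genes.

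The proteins these 10 work with were read from 4 lists, and edgeR called 0 of their genes in either experiment; the counts below are at an unadjusted p under 0.05. Of all genes tested, 5.42% were lower and 5.76% higher at that p in silencing, and 1.99% and 2.79% in overexpression. Of 15 tested tubulins 3 were lower in the silencing experiment, among them Tuba1b with 282 ± 83.8 CPM in Ptbp1 shRNA and 448 ± 158 CPM in scrambled shRNA and Tuba1c with 221 ± 80.7 and 360 ± 143 CPM (edgeR adjusted p = 0.409 and 0.444). Tubd1, the other one, averaged 0.0604 ± 0.0757 CPM in Ptbp1 shRNA and 1.66 ± 2.13 CPM in scrambled shRNA (edgeR adjusted p = 0.330). The list's median log2 fold change was -0.32, beside 0.03 over all genes. With PTBP1 overexpression 1 of 16 tubulins, Tuba8, was higher by that p, at 7.63 ± 1.62 CPM in PTBP1 OE and 5.22 ± 1.54 CPM in control OE (edgeR adjusted p = 0.974).

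Of 39 other microtubule-binding and plus-end proteins, 6 were higher and 5 lower in the silencing experiment at that p, with a median log2 fold change of 0.08. Clip1, a plus-end linker, had 520 ± 120 CPM in Ptbp1 shRNA and 254 ± 38.2 CPM in scrambled shRNA (log2 fold change 1.04, edgeR adjusted p = 0.0816). Tppp, which promotes tubulin polymerization, had 313 ± 70.6 and 553 ± 90.7 CPM in the same groups (-0.82, edgeR adjusted p = 0.170). Camsap1, a minus-end binder, had 125 ± 44.1 and 58.1 ± 20.3 CPM (1.10, edgeR adjusted p = 0.224). In overexpression 1 of 39, Map7, was lower, at 56.3 ± 3.05 CPM in PTBP1 OE and 64.6 ± 3.59 CPM in control OE (-0.20, edgeR adjusted p = 0.974).

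Of 31 tested tau kinases, phosphatases and modifiers, 1 was higher and 3 lower in the silencing experiment, led by the kinase Mapk9 with 311 ± 81.3 CPM in Ptbp1 shRNA and 570 ± 110 CPM in scrambled shRNA (-0.87, edgeR adjusted p = 0.171). The median log2 fold change of this list was -0.11 in silencing. In overexpression 4 were lower, led by Ogt, which adds N-acetylglucosamine to proteins, with 87.4 ± 8.27 CPM in PTBP1 OE and 106 ± 10.6 CPM in control OE (-0.28, edgeR adjusted p = 0.851), and Cdk5, a tau kinase, with 76.2 ± 1.59 and 87.7 ± 6.69 CPM (-0.20, edgeR adjusted p = 0.974). Of 25 tested tubulin modifying and severing enzymes, 2 were higher in silencing, led by the severing enzyme Spast with 214 ± 54.9 CPM in Ptbp1 shRNA and 131 ± 16.1 CPM in scrambled shRNA (0.71, edgeR adjusted p = 0.253). In overexpression 1 was lower, the deglutamylase Agtpbp1, with 432 ± 33.7 CPM in PTBP1 OE and 514 ± 30.8 CPM in control OE (-0.25, edgeR adjusted p = 0.779). The median of the enzymes was 0.07 in silencing. In overexpression the medians were 0.02 for tubulins, -0.01 for the other binding proteins, -0.02 for the kinase list and -0.03 for the enzymes, beside -0.00 over all genes.

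Across the 18 libraries the gene whose pattern was most like that of Mapt was Arf1, a small GTPase of the Golgi, with a root mean square difference of 0.22 in centred log2(CPM + 0.5) among 7447 genes. It averaged 408 CPM in Ptbp1 shRNA, 543 in scrambled shRNA, 805 in PTBP1 OE and 861 in control OE. The next 4, Gm12338, Gm12537, Gm12070 and Gm38393, may share reads with near-identical copies and are uncertain. Of the other members Mapre3 was closest to Mapt, at rank 343, and Map4 farthest, at rank 6517. All 18 points enter this measure, so the difference in level between the experiments is part of it.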

How the data were processed

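Gene counts and exon bin counts were used as deposited by the authors. Per the submitters' processing notes STAR 2.5.3a, HTSeq and build mm10 were involved; the sources used here do not give their roles, the annotation release or the strand setting. Symbols came from a GENCODE M21 table (37607 of 39017 identifiers). Groups were tested within each experiment with edgeR 4.0.16 (quasi-likelihood F test, filterByExpr, TMM factors, robust, Benjamini-Hochberg over all genes, adjusted p under 0.05); bins with its diffSpliceDGE, and both responses in 1 model of 18 libraries. Bin changes from diffSpliceDGE are natural logs, and gene changes are log2. CPM use TMM-scaled totals. Exon 10 coverage was tested with an exact permutation test (pseudocount 0.5). Bin positions were rebuilt by flattening M21 transcripts with identifier numbers up to 182000, and constitutive and cassette labels refer to these transcripts. The number of bins was the same for 31209 of 34765 identifiers (89.8%). It was the same for 7 of the 10 members (187 bins), but not for Map4, Map6 and Mapre3 (77 bins). DESeq2 1.42.0 and limma 3.58.1 were alternatives, besides normalization, filters, leaving out libraries and unevenly covered libraries. The scripts were tested on simulated data. Named were the members, Ptbp1, from each of 4 lists the genes called or with the 3 smallest p in each experiment (shown in part), the 5 genes most like Mapt, and member bins called, cassette or with the 5 smallest p. The members and lists were chosen with earlier results of these data known. No library pair was identical, and depth was 18288627 to 46544178 counts. P-values of genes and of exon 10 coverage measure the spread between mice. Those of bins pool the bins of a gene, which come from the same mice, so they do not measure that spread alone. One sequence is not reported here.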

Additional observations from a re-analysis of the deposited data

Results flagged for a closer look

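Among 64 groups of values checked for a library far from the others, 4 had one; chance flags about 5% of groups. Map4 had 589.7 CPM in control OE replicate 2, against 547.9 to 549.4 CPM in the other 3 control OE libraries, which lay very close together. Mapt exon 2 had 78.11% relative coverage in PTBP1 OE replicate 5, against at most 34.1% in the other 4 PTBP1 OE libraries. Mapt exon 3 had 6.769% in Ptbp1 shRNA replicate 1, resting on 3 counts, and 7.943% in scrambled replicate 1, resting on 6 counts, against 0 counts in every other silencing library.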

How the results depend on the processing

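No paired analysis was possible because the replicate numbers follow accession order and the labels give no number that pairs mice. Under the alternatives tried the 5 rising Map4 bins passed each time, the overexpression member bins called ranged between 5 and 9, and no member gene was called with overexpression. The silencing member genes called were 4 when all 18 libraries shared 1 fit and 1 with DESeq2, and 0 under the other 13 settings. Over all genes the silencing calls were 11 with no filter, 1775 in the fit of all 18 libraries, 69 with limma voom and 703 with DESeq2, and 0 to 5 with 1 library left out. The overexpression calls over all genes were 0 in the fit of all 18 libraries and 39 with DESeq2. For the response difference 17 genes were called with no filter and 1 to 174 with 1 library left out, with 0 to 1 member genes among them. The silencing bins called were 3 with limma diffSplice, 6 at a minimum of 10 counts, 0 without the 2 least evenly covered libraries and 0 to 3 with 1 library left out. The causes were not tested.

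Values near 0 changed sign, all without passing. With limma voom the log2 fold change was -0.076 for Map1a in silencing, 0.0092 for Map1a and -0.0069 for Dcx in overexpression, and -0.081 for the Map1a response difference. With no filter Mapre2 in overexpression had -0.00087. With diffSplice, whose bin changes are log2, Mapt bin 013 had 0.55 in silencing and bin 026 had -0.020 in overexpression. In edgeR without the 2 least evenly covered libraries, bin 013 had a natural-log change of 0.83 in silencing. Set against all Mapt bin counts, exon 10 differed by 0.067 in overexpression. With 1 library left out, silencing values ran between -0.061 and 0.42 for Map4 and between -0.19 and 0.23 for Map1a. In overexpression they ran between -0.10 and 0.092 for Map1a, -0.088 and 0.13 for Map1b, -0.064 and 0.091 for Dcx, -0.052 and 0.055 for Mapre2, and -0.029 and 0.12 for Mapre3. The response difference ran between -0.074 and 0.29 for Map2, -0.19 and 0.23 for Map1a, and -0.15 and 1.08 for Map6. In natural logs from edgeR, Mapt bin 013 ran between -0.43 and 0.62 in silencing and -0.015 and 0.094 in overexpression. Bin 026 ran between -0.043 and 0.090 in overexpression. Exon 10 coverage ran between -0.54 and 1.9999 in silencing and -0.14 and 0.085 in overexpression. Uneven coverage limits every exon value of the silencing libraries, where exon 10 rested on 0 to 178 counts.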
